A study of Rattus norvegicus with 2 samples.

Results

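The cells described here are glia of the rat dorsal root ganglion (DRG) with high S100b, low Fabp7 and Tyrp1, and at least 1 transcript of Sox2 or Dhh. They were chosen barcode by barcode, by measured counts of unique molecular identifiers (UMIs, each 1 captured transcript). Per 10000 UMIs of a barcode, S100b had to reach 15, with Emp1 under 4, Fabp7 plus Tyrp1 under 12, Prx, Mag and Cldn19 together under 5, and Cldn5, Flt1 and Cdh5 together under 2. Barcodes needed at least 1000 UMIs, with under 20% of them from the mitochondrial genes whose symbols start with Mt-. These limits kept 20811 of the 24179 barcodes of the series, and 2171 of them were members. The DPN library held 1216 members, 11.0% of its 11013 kept barcodes (exact binomial 95% interval 10.5% to 11.6%), and the Control library 955, 9.75% of 9798 (9.17% to 10.4%).

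Messenger RNA of single cells was counted from the 3′ end with the 10x Genomics assay in ganglia of male Sprague-Dawley rats. The DPN library (diabetic peripheral neuropathy) pooled the lumbar ganglia of 5 rats, 8 weeks after 1 injection of 65 mg/kg streptozotocin (STZ), a toxin of insulin-producing beta cells. The Control library pooled the ganglia of 5 rats injected with citrate buffer alone. STZ-injected rats were used only if their blood glucose was high, and all ganglia were dissociated with collagenase and trypsin and depleted of dead cells. Each condition was 1 library, so no test between conditions was possible, and rat, library preparation and diabetes cannot be told apart. Every interval given here is a 95% interval for counting error only.

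Glia of the DRG descend from the neural crest and keep the transcription factor Sox10. Satellite glial cells (SGCs) wrap the cell bodies of sensory neurons, whereas Schwann cells (SCs) line the axons, with or without myelin. Sox2 is a transcription factor of glial progenitors and immature SCs. Dhh is the hedgehog ligand that SCs secrete to organise the perineurium, and S100b is a calcium-binding protein common to both kinds of glia.

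The median depth of a member was 6474.5 UMIs in DPN (quartiles 5011 and 8602) and 8158 UMIs in Control (6164 and 10586). The sums over members were 8691273 UMIs in DPN and 8220722 UMIs in Control, out of 115409375 and 121101966 UMIs in all barcodes of the DPN and Control libraries. Mt- genes took 15.1% of the UMIs of members in DPN and 14.0% in Control, and genes of the mitochondrial record AY172581 took 5.96% and 4.83%. Likely doublets, scored against simulated pairs of barcodes, were 11.1% of DPN members and 5.76% of Control members. The share flagged in a library was set beforehand at 0.8% per 1000 barcodes. It was thus larger in the DPN library, with 13168 barcodes, than in the Control library, with 11011, in proportion to these numbers. The shares flagged among members differed by more than that proportion. Of the barcode sequences, 38 occurred in both libraries, 1 of them as a member in both. Levels are UMIs of a gene per 1000000 UMIs summed over the members of a library (CPM). The S100b limit cut a continuous range. Members with S100b from 15 to 20 numbered 274 in DPN and 205 in Control, and 260 DPN and 211 Control barcodes with S100b from 10 to 15 met every other limit. Spock3 stood at 25.2 CPM in DPN and 12.2 CPM in Control just inside this limit, and at 17.9 and 10.9 CPM just outside it. The Sox2 or Dhh requirement alone left out only 77 DPN and 55 Control barcodes, whereas the limit on Fabp7 and Tyrp1 alone left out 992 and 1326.

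The genes that chose the members had the following levels, given as a description. S100b was at 3158 CPM in DPN members and 3366 CPM in Control members, and its median over cells was 27.8 and 29.6 per 10000 UMIs. Sox2 was at 569 CPM in DPN members and 522 CPM in Control members. Dhh was at 249 CPM in DPN members and 227 CPM in Control members. UMIs of both genes were found in 65.3% of DPN members (62.5% to 68.0%) and 69.9% of Control members (66.9% to 72.8%). Sox2 alone was found in 28.0% of DPN and 23.0% of Control members, and Dhh alone in 6.74% and 7.02%. Members with both genes were deeper, with medians of 7117 UMIs in DPN and 8664 UMIs in Control, against 5436 and 6105.5 UMIs in those with Sox2 alone.

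Markers that the rule did not use were compared between the members and other classes of cells. Comparison classes were gated in the same libraries and held no members. The classes were an SGC gate (Fabp7 plus Tyrp1 at least 12, 1817 DPN and 2401 Control cells), a Fxyd1 Sostdc1 SC gate (Fxyd1 plus Sostdc1 at least 10, 841 and 722), an Igfbp3 Nes Fgf2 SC gate (884 and 778), a myelinating SC gate (Prx, Mag and Cldn19 at least 5, 432 and 323) and an endothelial gate (1213 and 802). Apart from its Fxyd1 plus Sostdc1 limit, the Fxyd1 Sostdc1 SC gate kept the low limits of the rule. Its cells fell outside the members only by S100b or by a lack of Sox2 and Dhh. Fxyd1 had a median of 9.73 per 10000 UMIs over DPN members and 10.5 over Control members, so many members met that gate's own limit. Spock3, a secreted proteoglycan, was higher in members than in each of the comparison classes in both libraries. It was at 40.0 CPM in members against 10.3 CPM in the SGC gate in DPN (ratio 3.89, 3.27 to 4.65), and at 28.7 against 4.55 CPM in Control (6.30, 5.12 to 7.78). The nearest class was the Igfbp3 Nes Fgf2 SC gate, with 21.1 CPM in DPN and 12.3 CPM in Control.

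Lgi4, a glial ligand needed for axon sorting and myelination, was at 587 CPM in members against 293 CPM in the SGC gate in DPN (interval of the ratio 1.93 to 2.08), and at 315 against 157 CPM in Control (1.91 to 2.10). Against the Fxyd1 Sostdc1 SC gate its DPN ratio was 1.05, with an interval of 0.995 to 1.11 that held 1, and its Control ratio 1.25 (1.16 to 1.36). Cdh19, a cadherin of the Schwann lineage, was at 484 CPM in DPN members and 349 CPM in Control members, 2.77 and 2.74 times the SGC gate. In DPN it did not differ from the Fxyd1 Sostdc1 SC gate (ratio 1.01, 0.951 to 1.07) beyond counting error, while the Control ratio was 1.34 (1.25 to 1.45). Sox10 was at 109 CPM in DPN and 116 CPM in Control members, against 6.65 and 7.31 CPM in endothelial cells, so the glial label held. Lgi4 and Cdh19 therefore set the members apart from the SGC gate and not consistently from all SC gates, and no finer cell type name is given.

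**Figure D1:**
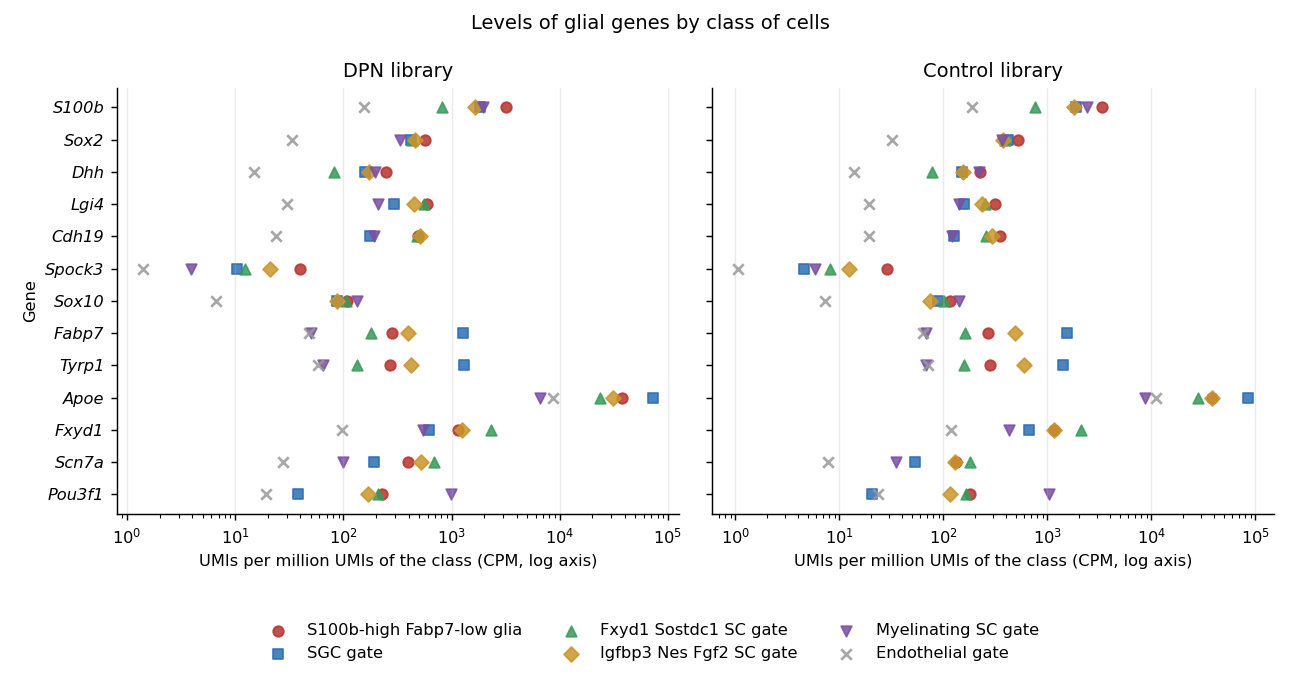
Levels (CPM, log axis) of 13 genes, 1 per row, in 6 classes of cells marked by colour and shape, with the DPN library on the left and the Control library on the right. Spock3 of the members (red circles) stands at 40.0 CPM in DPN and 28.7 CPM in Control, right of every other class, while Apoe lies between the SGC gate and the myelinating SC gate.

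Genes of satellite glia were present at reduced levels. Apoe, the lipid carrier that SGCs make in bulk, was at 37172 CPM in DPN members and 38627 CPM in Control members, 0.511 and 0.449 times the SGC gate. Igfbp2 was at 58.9 CPM in DPN and 68.6 CPM in Control members, against 252 and 457 CPM in the SGC gate. Spp1 (osteopontin) was at 686 and 527 CPM, against 1915 and 2205 CPM in the SGC gate. A Schwann gene was above the SGC gate: Pou3f1, a factor of promyelinating SCs, was at 229 CPM in DPN and 179 CPM in Control members, against 37.6 and 20.4 CPM in the SGC gate.

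Genes most enriched over each class were taken by the smaller of the DPN and Control ratios. Over the SGC gate they began with Adam23, which is a receptor of LGI proteins (17.6 against 2.06 CPM in DPN, 8.76 against 0.833 CPM in Control), the actin-capping gene Capg, the neurotrophin receptor gene Ntrk3 and the guanine deaminase gene Gda. Over the Fxyd1 Sostdc1 SC gate they were led by Bcan (brevican), the ETS factor gene Etv4 and Omg. Bcan stood at only 0.597 CPM in DPN and 0.870 CPM in Control in that gate. Etv4 was at 29.1 against 5.37 CPM in DPN and at 23.6 against 5.22 CPM in Control. Neither Bcan nor Etv4 was particular to the members. At 1000 UMIs per cell, Etv4 was found in 4.13% of DPN and 3.62% of Control SGC gate cells, against 2.22% and 2.09% of members. Bcan was found in 2.86% and 1.04% of SGC gate cells, against 1.81% and 0.524% of members. Over the Igfbp3 Nes Fgf2 SC gate Hoxb4 led, at 73.2 against 20.9 CPM in DPN and 44.8 against 9.81 CPM in Control. It was followed by G0s2 and Ddit4. Over the myelinating SC gate the receptor-type phosphatase gene Ptprz1 (248 against 21.4 CPM in DPN, 153 against 13 CPM in Control) and the endothelin receptor gene Ednrb (300.1 against 26.3 CPM in DPN, 315 against 18.8 CPM in Control) were among the first 15. On the low side, the actin-binding gene Tpm2 was at 44.9 CPM in DPN members against 678 CPM in the Fxyd1 Sostdc1 SC gate. In Control Tpm2 was at 38.1 against 950 CPM. Apod was at 181 against 1324 CPM in DPN and 221 against 4072 CPM in Control. Tpm1 was at 71.7 against 437 CPM in DPN and 56.8 against 474 CPM in Control. That gate set no limit on genes of mural cells or fibroblasts and asked for no S100b. The part of mural cells or fibroblasts in its levels was not tested.

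The members were not uniform. Each library was clustered apart, which gave 5 sub-clusters in DPN and 7 in Control, described here without a test since the same counts defined them. A sub-cluster led by the SGC genes Igfbp2, Cdh15, Spp1, Ptgds and Fbln2 appeared in both libraries. It held 212 DPN members (17.4%) and 216 Control members (22.6%), and 8 of its 12 leading genes were shared. Its cells were the deepest of the large sub-clusters, with medians of 10997 UMIs in DPN and 12054.5 UMIs in Control. Apoe reached 68129 CPM there in DPN and 66286 CPM in Control, near the SGC gate, and Fabp7 463 and 437 CPM. Spock3 was at only 14.5 CPM in DPN against 49.9 CPM in the other DPN members, and at 9.42 against 37.9 CPM in Control. In this sub-cluster the label therefore fits less well than elsewhere, and its cells carried the leading genes of satellite glia.

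A second shared sub-cluster had Pou3f1, Plekha1 and Ick among its leading genes and held 136 DPN and 131 Control members. Pou3f1 was at 867 CPM there against 168 CPM in the other DPN members, and at 618 against 129 CPM in Control. Apoe was at 10876 CPM in DPN and 12781 CPM in Control. A further pair, which shared Rasal2, Dot1l, Sbno2 and the NF-kappa-B subunit gene Nfkb1 among the leading genes, held 186 DPN and 125 Control members. Tnfrsf12a, the TWEAK receptor gene that nerve injury induces in SCs, was at 517 CPM there against 167 CPM in the other DPN members, and at 768 against 415 CPM in Control. The largest sub-clusters, 387 cells in DPN and 249 in Control, both had Ddit4, Dusp1 and Txnip among their first 12 genes. A DPN sub-cluster of 295 cells was led by Il33, Ccn1 and Nr4a2, with Egr1 and Junb, and a Control sub-cluster of 156 cells by Cgas, Map3k8 and Cox4i2, with Cxcl10 and Isg15. A Control sub-cluster of 68 cells shared Ddit4, G0s2 and Scn7a with the largest one of DPN. In Control, 10 members (1.05%, 0.503% to 1.92%) formed a dividing group led by Spc24, Cdkn3 and Prc1, with a median of 15668 UMIs. Top2a, a topoisomerase of dividing cells, had 67 UMIs there, and in DPN it had 45 UMIs in sub-cluster 3 and 13 UMIs in sub-cluster 5, where no separate dividing group formed.

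**Figure D2:**
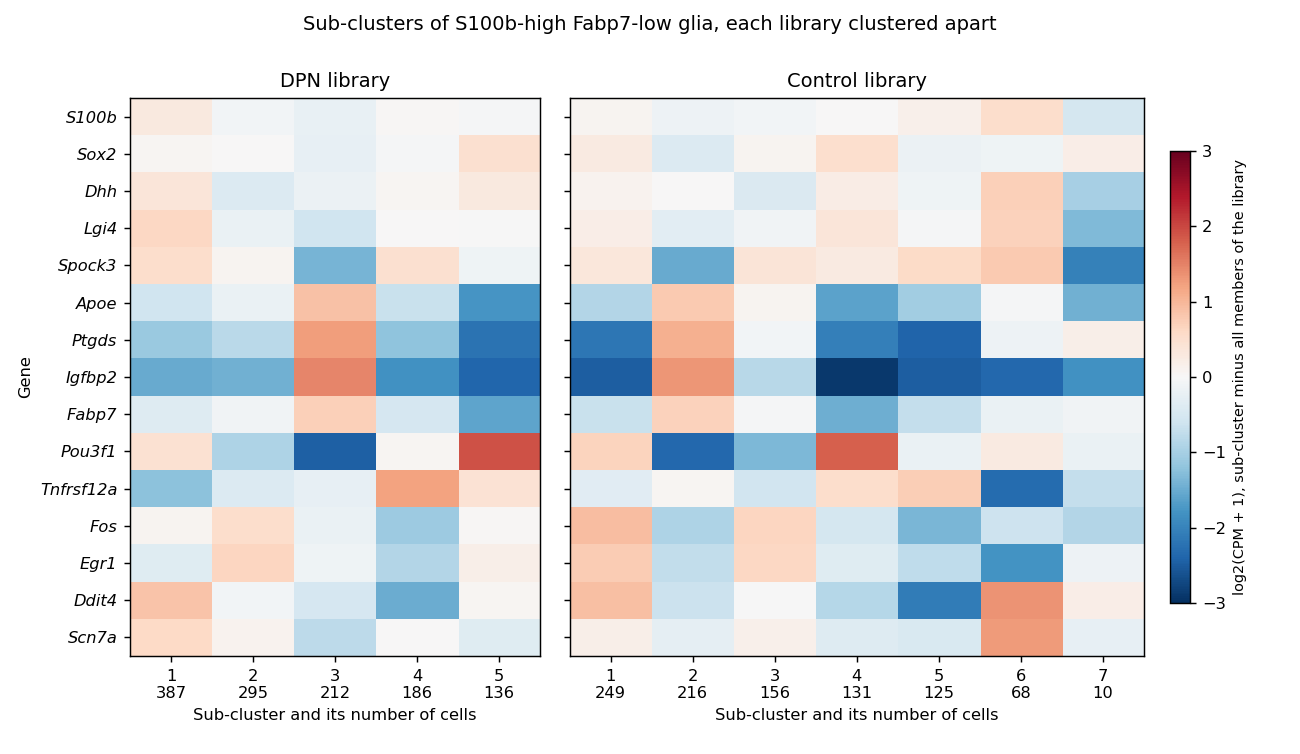
Difference in log2(CPM + 1) between each sub-cluster and all members of its library (colour) for 15 genes (rows), with DPN sub-clusters on the left and Control sub-clusters on the right and the number of cells under each. DPN sub-cluster 3 and Control sub-cluster 2 are high in Apoe, Ptgds and Igfbp2 and low in Spock3, and DPN sub-cluster 5 and Control sub-cluster 4 are high in Pou3f1.

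DPN was then compared with Control, gene by gene, over the summed UMIs of all members. Genes entered with 200 or more UMIs in all, seen in 10% or more of the members of either library. Of these 5896 genes, 966 (16.4%) were at least 1.5-fold higher in DPN and 212 (3.60%) at least 1.5-fold lower. With 200 or more UMIs, a ratio past 1.5-fold always has an interval that leaves out 1, so the intervals of these genes are no test. The median log2 ratio over the tested genes was 0.03. The excess on the high side lay mostly below 100 CPM. Below 20 CPM, 23.8% of 1263 genes were higher and 3.88% lower, and from 20 to 100 CPM 17.3% of 3355 genes were higher and 3.07% lower, whereas at 100 CPM and above 6.49% of 1278 genes were higher and 4.69% lower. The SGC gate had 18.6% higher and 2.49% lower, and endothelial cells 17.1% and 3.95%, so the shares in members lay near those of other classes of the same libraries. Counts for gene lists are to be read against 16.4% and 3.60%.

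**Figure D3:**
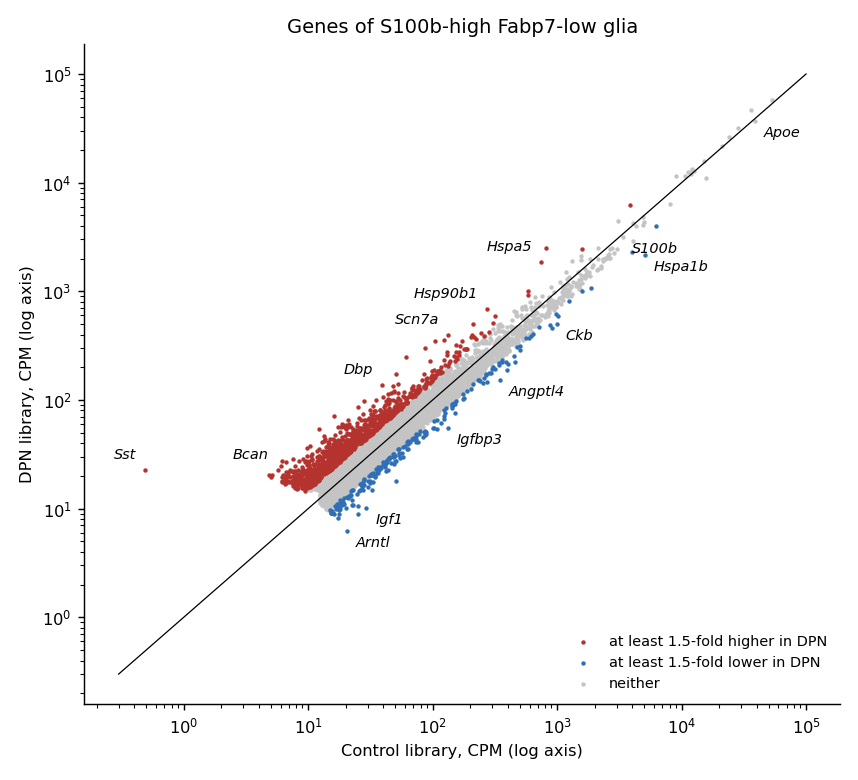
Level of each of the 5896 tested genes in DPN members (vertical, CPM, log axis) against Control members (horizontal, CPM, log axis). Red points are the 966 genes at least 1.5-fold higher in DPN, blue points the 212 at least 1.5-fold lower, and the line marks equal levels, from which Sst departs most.

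The highest ratio was that of Sst, the somatostatin precursor, a peptide of sensory neurons. It had 196 UMIs in 169 DPN members and 4 UMIs in Control members, a ratio of 46.3 (17.8 to 172). The same gene was 31.5-fold higher in endothelial cells of DPN, which should lack it. At 1000 UMIs per cell, 3.54% of DPN members and 0.105% of Control members held a Sst UMI, and 2.97% of DPN endothelial cells. At full depth 12.4% of DPN endothelial cells and 0.499% of Control ones held one, at median depths of 8891 and 10376.5 UMIs. The part of free RNA in the level of the members was not tested. High ratios were also those of Slc30a9 (27.3 CPM in DPN, 6.20 CPM in Control, ratio 4.40), Enpp5 (4.39) and the TGF-beta receptor gene Tgfbr2 (20.5 and 4.87 CPM, ratio 4.21). Col4a2, Cenpb, Tmx1, Bcan, Rap1b, Shc4 and Spred1 followed, with ratios from 4.05 to 3.62. The ratios of all 12 highest genes were above 1.5 in the SGC gate too, from 2.54 for Tmx1 to 5.68 for Col4a2 after 19.0 for Sst. Bcan was at 0.686 in the Fxyd1 Sostdc1 SC gate, where it stood at only 0.597 CPM in DPN and 0.870 CPM in Control.

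The lowest ratio was that of Arntl (BMAL1, the positive arm of the circadian clock), with 6.21 CPM in DPN and 20.6 CPM in Control (ratio 0.302, 0.218 to 0.413). Igf1, a growth factor for neurons and glia, was at 10.2 CPM in DPN and 29.3 CPM in Control (0.349, 0.271 to 0.447). MGC108823, Igfbp3 (0.415) and March3 (0.422) came next. Hspa1b, the inducible HSP70, was at 2180 CPM in DPN and 5065 CPM in Control (0.430, 0.423 to 0.438), and Hspa1a, its near-identical copy, has no row of that name in the counts, so reads may be shared. Angptl4, a lipase inhibitor induced by fasting, was at 153 CPM in DPN and 345 CPM in Control (0.442, 0.414 to 0.472). The amino acid and one-carbon genes Chac1 (0.463), Slc7a1 (0.475) and Shmt2 (0.476), the phospholipid enzyme gene Lpcat3 (0.462) and Tagln2 (0.479) completed the lowest 12. In the SGC gate these ratios ran from 0.242 for Igf1 to 0.763 for Chac1, all below 1, while Chac1 was above 1 in endothelial cells (1.38) and in the Fxyd1 Sostdc1 SC gate (1.17).

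**Figure D4:**
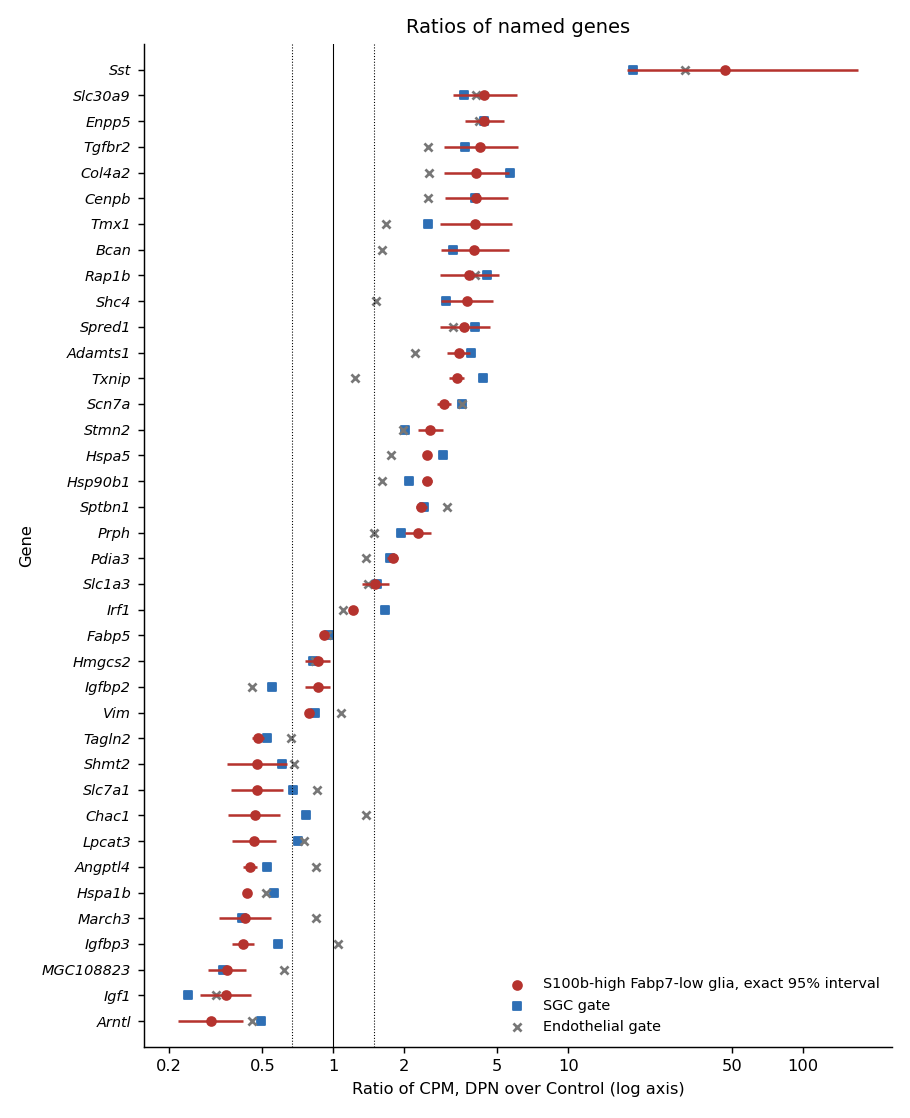
Ratio of CPM, DPN over Control (log axis), for 38 named genes in members (red circles, with exact 95% intervals as lines), in the SGC gate (blue squares) and in the endothelial gate (grey crosses), ordered by the ratio in members. Solid and dotted lines mark 1 and 1.5-fold; Txnip stands at 3.35 in members, 4.34 in the SGC gate and 1.24 in endothelial cells.

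Among the genes that named the cells, Lgi4 differed most. It was at 587 CPM in DPN (571 to 603) and 315 CPM in Control (303 to 327), a ratio of 1.86 (1.78 to 1.95). Cells of the DPN library had a median of 5.24 per 10000 UMIs and those of Control 2.76, above the Control upper quartile of 4.59. Lgi4 was higher in DPN than in Control in the comparison classes too, at 293 against 157 CPM in the SGC gate. It was at 559 against 251 CPM in the Fxyd1 Sostdc1 SC gate and 444 against 237 CPM in the Igfbp3 Nes Fgf2 SC gate. The myelinating SC gate had 209 against 143 CPM and endothelial cells 30.2 against 19.2 CPM. Cdh19 had a ratio of 1.39 (1.32 to 1.45) and Spock3 likewise 1.39 (1.18 to 1.65), under 1.5, although Spock3 passed 1.5 in 4 of the 17 other settings tried, from 1.54 as a mean over cells to 2.55 with a mitochondrial limit of 10%. Sox2 (1.09), Dhh (1.1), Fabp7 (1.05), Tyrp1 (0.971) and S100b (0.938) lay near 1 and are given as a description, since the rule used these genes. Scn7a, a sodium channel of non-myelinating SCs, was at 397 CPM in DPN and 133 CPM in Control (2.97, 2.78 to 3.19). Scn7a was also 3.54-fold higher in the SGC gate and 3.84-fold in the Fxyd1 Sostdc1 SC gate. In endothelial cells it was at 27.6 CPM in DPN and 7.79 CPM in Control, a similar ratio at a far lower level. Txnip, the glucose-induced inhibitor of thioredoxin, was at 347 CPM in DPN and 104 CPM in Control (3.35, 3.11 to 3.62). Within the 3 pairs of sub-clusters that both libraries shared, Scn7a ranged from 2.09 to 4.10, Txnip from 3.03 to 4.65 and Lgi4 from 1.44 to 1.94, whereas Cdh19 (0.980 to 1.43) and Spock3 (1.06 to 1.54) reached 1 or nearly so in a pair.

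Axon-glia adhesion genes had more members on the high side than the background. Of 19 tested, 8 were at least 1.5-fold higher and none lower, with a median log2 ratio of 0.49. Among the 8 were Lgi4, its candidate receptor Adam23 (2.01), Cadm4 (2.28), a glial nectin-like protein that binds axons, Chl1 (1.90), Nrcam (2.10), Cntn1 (2.04) and Ptprz1 (1.63). Cadm4 was at 78.9 CPM in DPN and 34.7 CPM in Control. Ptn, the pleiotrophin ligand of Ptprz1 and the most abundant gene of the list, did not follow, at 3988 CPM in DPN and 4305 CPM in Control (0.926). Several of the 8 are genes that neurons also make. Neuron markers were higher too, in 10 of 12 tested genes with a median log2 ratio of 1.07, and the sum over all 18 was 770 CPM in DPN and 402 CPM in Control members. With S100b at least 10 in place of 15, no neuron marker was higher and 5 were lower, where 1 Control barcode of 219907 UMIs entered, and with only barcodes under 100000 UMIs 10 were higher again. Endothelial cells, which lack these genes, had sums of 510 CPM in DPN and 281 CPM in Control, and the part of neuronal RNA in the members' ratios was not tested.

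Markers of other cell types were summed too, and fibroblast markers had the largest sum of these. The endothelial sum is no test, because the rule keeps Cldn5, Flt1 and Cdh5 low in members and the endothelial gate requires them high. Endothelial markers summed to 28.5 CPM in DPN and 16.8 CPM in Control members, with 10 of 11 genes higher in DPN, against 8369 and 8595 CPM in the endothelial gate. Macrophage markers summed to 69.8 and 66.2 CPM (10 of 12 genes higher in DPN, Mrc1 at 0 in a library), and lymphocyte markers to 1.84 and 0.608 CPM, with 5 of 7 at 0 in both. Mural markers summed to 86.4 and 71.9 CPM (7 of 10 higher in DPN), fibroblast markers to 486 and 556 CPM (5 of 9) and red blood cell markers to 4.72 and 4.01 CPM. In the endothelial gate, fibroblast markers summed to 804 CPM in DPN and 798 CPM in Control, and macrophage markers to 68.7 and 53.0 CPM. The neutrophil sum of 25.1 CPM in DPN against 2.92 CPM in Control rested mainly on a single barcode, which held 102 of the 127 UMIs of S100a9.

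Chaperones of the endoplasmic reticulum (ER) were higher in DPN as a group. These proteins fold secreted and membrane proteins, and the unfolded protein response (UPR) induces them through ATF6, XBP1 and PERK. Of 21 tested, 9 were at least 1.5-fold higher and none lower, with a median log2 ratio of 0.50. Hspa5 (BiP), the main HSP70 of the ER, was at 1868 CPM in DPN and 744 CPM in Control (2.51, 2.44 to 2.59). Its median over cells was 17.4 per 10000 UMIs in DPN, above the upper quartile of 10.1 in Control. Hsp90b1 (GRP94) was at 684 CPM in DPN and 273 CPM in Control (2.50, 2.38 to 2.63). Pdia4 had a ratio of 3.07, Hyou1 2.91, Pdia3 1.79, Sel1l 1.74, Creld2 1.72, Atf6 1.63 and Dnajc3 1.54. The genes of the PERK branch did not follow: Atf4 was at 714 CPM in DPN and 985 CPM in Control (0.725), and Ddit3 (CHOP) at 303 and 384 CPM (0.788). Hspa5 had ratios of 2.93 in the SGC gate and 1.77 in endothelial cells, and the list's median log2 ratio was 0.48 and 0.18 there.

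Promoter sequences are shown for Hspa5 and Hsp90b1, since both were among the most abundant genes of the group and both hold the ER stress element. The element was searched on both strands as CCAAT followed after 9 bases by CCACG, in RefSeq windows from 250 bases before to 50 after the start of a gene (build GRCr8). It was found in 22 of 33469 windows (0.0657%) and in 7 of the 22 genes of the list that had a window. Among the 9 genes at least 1.5-fold higher, 7 had a window and 4 of them the element (Hspa5, Hsp90b1, Dnajc3 and Creld2), and among the 12 other tested genes 2 of 10 had it (Calr and Canx). A match describes the sequence and not the use of the site. The windows lie at chr3:38452766-38453065 on the plus strand and chr7:23012244-23012543 on the minus strand, and are given 5′ to 3′ on the strand of the gene with the element in capitals.
Hspa5: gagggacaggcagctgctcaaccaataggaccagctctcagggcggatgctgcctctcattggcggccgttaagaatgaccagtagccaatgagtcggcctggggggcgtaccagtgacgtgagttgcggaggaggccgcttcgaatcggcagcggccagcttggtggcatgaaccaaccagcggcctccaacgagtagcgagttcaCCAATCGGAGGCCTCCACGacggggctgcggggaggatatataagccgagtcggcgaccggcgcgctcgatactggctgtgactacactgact
Hsp90b1: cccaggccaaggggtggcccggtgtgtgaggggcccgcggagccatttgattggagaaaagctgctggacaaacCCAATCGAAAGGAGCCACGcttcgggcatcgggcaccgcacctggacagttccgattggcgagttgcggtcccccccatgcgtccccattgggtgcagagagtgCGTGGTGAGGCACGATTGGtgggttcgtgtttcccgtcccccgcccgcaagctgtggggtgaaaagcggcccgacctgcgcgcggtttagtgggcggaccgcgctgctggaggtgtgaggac

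Cytosolic heat shock genes were lower in DPN. Of 19 tested, 9 were at least 1.5-fold lower and none higher, with a median log2 ratio of −0.54. Beside Hspa1b these included the small heat shock genes Cryab (464 CPM in DPN, 913 CPM in Control, ratio 0.508) and Hspb1 (486 and 872 CPM, 0.557), the mitochondrial co-chaperonin gene Hspe1 (45.2 and 83.1 CPM, 0.544), Dnajb1 (0.633), Chordc1, Ahsa1 and the polyubiquitin gene Ubb (0.639). The constitutive genes Hspa8 (0.769) and Hsp90ab1 (0.907) lay closer to 1. The list's median log2 ratio was −0.23 in the SGC gate and −0.51 in the Fxyd1 Sostdc1 SC gate. Within the 3 shared sub-clusters Hspa5 ranged from 2.49 to 2.83 and Hspa1b from 0.337 to 0.526. The heat shock element was searched as GAA, 2 bases, TTC, 2 bases, GAA on both strands. It was in 0.798% of all windows and in 6 of 18 listed genes with a window. Of the tested genes with a window, 2 of the 6 lower genes and 4 of the 9 genes within 1.5-fold held it. Hspe1, with overlapping matches, is shown as 1 of the 2 lower genes that carried it, beside Chordc1 (chr9:64084077-64084376, plus strand, matches in capitals).
Hspe1: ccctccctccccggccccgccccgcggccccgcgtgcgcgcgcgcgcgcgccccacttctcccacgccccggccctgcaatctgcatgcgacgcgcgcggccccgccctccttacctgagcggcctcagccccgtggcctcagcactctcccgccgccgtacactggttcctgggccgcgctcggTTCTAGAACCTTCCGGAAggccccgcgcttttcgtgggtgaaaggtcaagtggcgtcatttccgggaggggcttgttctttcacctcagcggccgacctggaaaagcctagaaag

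Clock genes were shifted in opposite directions. The transcription factors CLOCK and BMAL1 switch on Per, Nr1d and Dbp genes, whose products turn them off again, so these arms peak at different times of day. Of 14 tested, 8 were at least 1.5-fold higher and 1, Arntl, lower, with a median log2 ratio of 0.72. Dbp was at 137 CPM in DPN and 39.3 CPM in Control (3.48, 3.08 to 3.95), and Tef at 74.3 and 27.6 CPM (2.69, 2.31 to 3.15). Bhlhe40 had a ratio of 2.47, Ciart 2.05, Nr1d1 (REV-ERB alpha) 1.75, Nr1d2 1.70, Per3 1.69 and Wee1 1.61. The list's median was between 0.63 and 0.86 in the other 5 classes, endothelial cells included. The E-box CACGTG was in 6.42% of all windows and in 5 of 15 listed genes with a window, and 4 of the 7 higher genes with a window held it. Tef is shown as the higher gene with the largest ratio that held it (chr7:115206577-115206876, plus strand, E-box in capitals).
Tef: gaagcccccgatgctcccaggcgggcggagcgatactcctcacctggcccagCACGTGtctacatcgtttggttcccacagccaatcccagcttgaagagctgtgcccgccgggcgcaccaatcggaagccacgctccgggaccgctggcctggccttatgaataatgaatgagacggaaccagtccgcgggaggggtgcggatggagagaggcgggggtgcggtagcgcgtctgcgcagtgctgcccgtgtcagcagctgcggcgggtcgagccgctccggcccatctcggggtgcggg

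Matrix genes were higher in 13 of 31 tested and lower in 1, with a median log2 ratio of 0.33. The basement membrane collagens Col4a1 (187 CPM in DPN, 98.8 CPM in Control, 1.89) and Col4a2 (24.6 and 6.08 CPM, 4.05), Lama4 (2.23) and Lamc1 (1.54) were on the high side, with Col28a1, a collagen of peripheral glia, at 116 CPM in DPN and 46.2 CPM in Control (2.51). The protease Adamts1 was at 172 CPM in DPN and 50.5 CPM in Control (3.42). Timp1, an inhibitor of such proteases, was lower, at 587 CPM in DPN and 1018 CPM in Control (0.577), and the fibrillar collagens Col1a1 (0.705) and Col3a1 (0.694) were within 1.5-fold.

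Myelin genes were on the low side, in 4 of 13 tested and with a median log2 ratio of −0.36. The list's median was −0.62 in endothelial cells, −0.32 in the myelinating SC gate and −0.14 in the SGC gate. It was −0.09 in the Fxyd1 Sostdc1 SC gate and −0.15 in the Igfbp3 Nes Fgf2 SC gate. The part of free RNA in these ratios was not tested. Cnp, an enzyme of non-compact myelin, was at 286 CPM in DPN and 500.0 CPM in Control (0.571), and Pllp, Egfl8 and Plekhb1 had ratios from 0.590 to 0.622. Mbp was lower by less than 1.5-fold (0.764), and Pmp2 lay near 1 (1.01). Repair and Igfbp3 SC genes had 3 of 8 lower, among them Igfbp3 and Tnfrsf12a, and Fgf2 higher (1.63). Tnfrsf12a was at 222 CPM in DPN and 459 CPM in Control (0.483, 0.457 to 0.511).

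Signalling lists were mixed, and their counts are to be read against the 16.4% higher and 3.60% lower of all tested genes. The hedgehog list had 3 tested genes, none past 1.5-fold, and these include Dhh, which the rule used. Ptch1, the receptor and target of Dhh, was at 96.9 CPM in DPN and 67.6 CPM in Control (1.43, 1.29 to 1.60). In the Notch list, of 11 tested, the effector gene Rbpj was higher (1.83) and the targets Hes1 (218 CPM in DPN, 341 CPM in Control, 0.640) and Heyl (0.571) lower, while the receptor Notch1 was at 1.08. Of 13 growth factor receptor genes 5 were higher: Fgfr1 (2.37), Tgfbr2, the adhesion receptor gene Adgrb3 (2.05), and the LIF receptor genes Lifr (2.99) and Il6st (1.87). Socs3, which these cytokine receptors induce, was at 85.4 CPM in DPN and 25.1 CPM in Control (3.41, 2.92 to 4.0), while Stat3 itself was at 0.904. Of 24 glial transcription factors 5 were higher (Nfib 2.08, Yy1 1.87, Sox6 1.74, Zeb2 1.63, Hif1a 1.58) and none lower, and Sox10 was at 0.942.

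Immediate early genes, which respond rapidly to stimuli, were higher in 7 of 31 and lower in 1. All tested genes had 16.4% higher and 3.60% lower. The list's median log2 ratio was 0.20, against 0.33 in the SGC gate, 0.57 in the Igfbp3 Nes Fgf2 SC gate and 0.10 in endothelial cells. Fos was at 6178 CPM in DPN and 3816 CPM in Control (1.62), Egr1 at 2441 and 1595 CPM (1.53), Dusp1 had 1.66 and the kinase gene Plk2 2.87, and Maff was lower (0.564). Of 27 cytokine, interferon and antigen presentation genes 2 were higher and 4 lower, among them the chemokine gene Ccl2 (620 CPM in DPN, 987 CPM in Control, 0.628), the peptide transporter gene Tap1 (0.632) and Psmb9 (0.520). Irf1 was at 912 CPM in DPN and 751 CPM in Control (1.21, 1.17 to 1.26), under 1.5, against 1.67 in the SGC gate. Vim, the intermediate filament of immature glia, was at 6359 CPM in DPN and 8075 CPM in Control (0.788).

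Counts in the metabolic and ion channel lists are to be read against the 16.4% higher and 3.60% lower of all tested genes. Cholesterol synthesis had 4 of 28 higher and none lower, with Hmgcs1 at 1005 CPM in DPN and 584 CPM in Control (1.72). Fatty acid genes had 2 of 18 higher. Of 15 PPAR and fasting genes 4 were higher, among them Pdk4 (1.99), which holds back pyruvate oxidation, and Angptl4 was lower. Of 22 glucose genes 4 were higher, Hk1 (3.15), Pkm (2.27), the monocarboxylate transporter gene Slc16a1 (2.14) and Txnip, which this list shares with the one before. Tpi1 (0.588) and Ckb were lower. Ckb, the brain creatine kinase, was at 498 CPM in DPN and 994 CPM in Control (0.501). Metallothioneins and oxidative defence had none of 23 higher and 2 lower, Mt1 (0.534) and Hmox1 (0.603). Of 17 ion channel and gap junction genes 4 were higher, with Scn7a first and Trpm3 at 2.12.

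**Figure D5:**
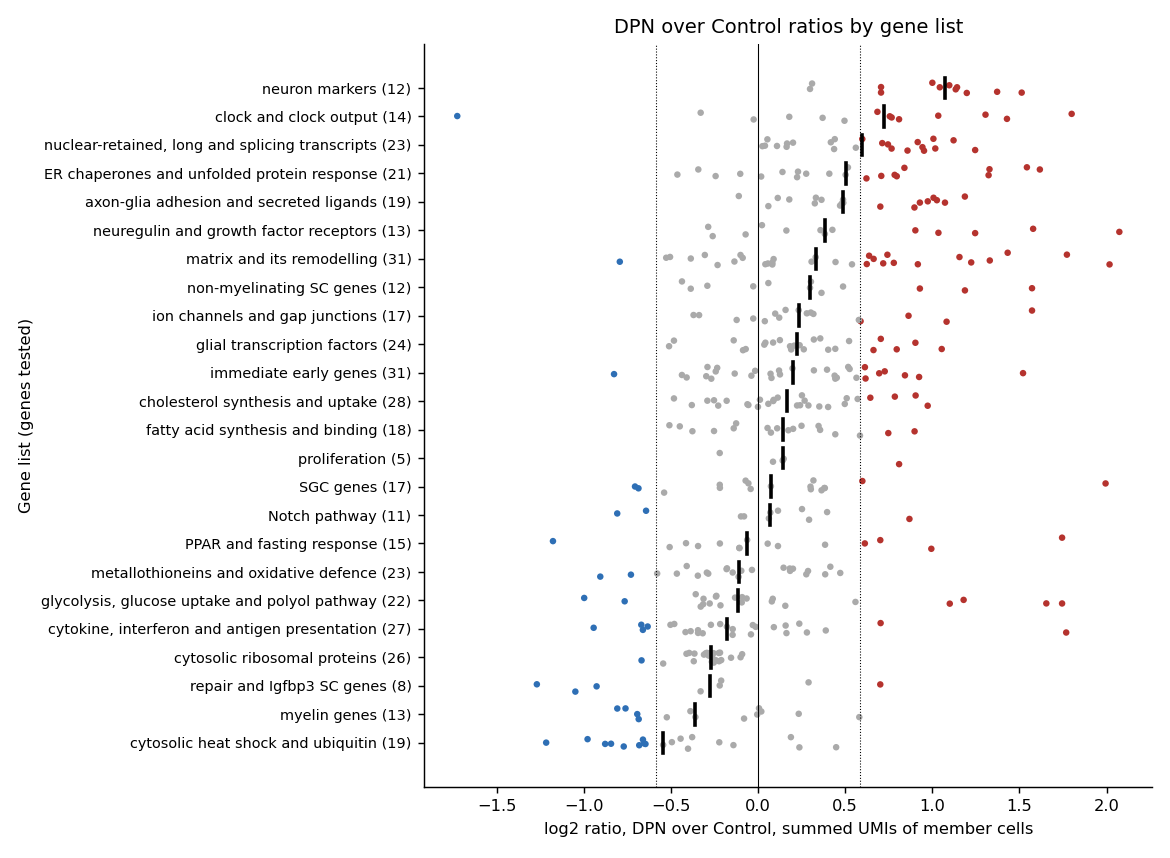
log2 ratio, DPN over Control, of each tested gene (points) in 24 gene lists with at least 5 tested genes, with the list median as a black bar and the number tested in brackets. Red points are at least 1.5-fold higher and blue at least 1.5-fold lower; neuron markers, clock genes and nuclear-retained or long transcripts have the highest medians and cytosolic heat shock genes the lowest.

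A shift by kind of transcript ran alongside these groups. Of 23 nuclear-retained, long or splicing-related transcripts, 12 were at least 1.5-fold higher, none lower and all 23 above 1, with a median log2 ratio of 0.60, and Sptbn1, the beta-spectrin gene, was at 499 CPM in DPN and 210 CPM in Control (2.37). All 26 cytosolic ribosomal protein genes were below 1, with a median of −0.27 and 1 past 1.5-fold. The same lists had medians of 0.61 and −0.19 in the SGC gate and 0.74 and −0.16 in endothelial cells. Its part in the ratios of single genes and lists was not tested.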

How the data were processed

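A DPN and a Control library of dissociated rat DRG cells were counted. The authors deposited raw UMI counts per gene and barcode, made with Cell Ranger and STAR (named in the submitters' processing notes); STAR's version and the genome build are not given in the sources used here. A shared symbol stood for several identifiers in 147 cases, whose counts were added.

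Members and comparison classes were gated on counts per 10000 UMIs. UMIs of each gene were summed per class and library (CPM). Levels carry exact Poisson, ratios exact conditional binomial and shares Clopper-Pearson 95% intervals, for counting error only. A gene was tested with 200 or more UMIs in all, seen in 10% or more of the members of either library, and called at 1.5-fold. Sub-clusters came from scanpy 1.11.5 (1500 variable genes, 20 components, 15 neighbours, Leiden resolution 0.6) in each library apart. Likely doublets were scored at 0.8% per 1000 barcodes and kept. The ratios, intervals and calls were tested on simulated UMI sums with counting error only. The gates, sub-clusters and doublet scores were not tested in this way.

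Members, gates and the 32 gene lists were chosen with earlier results of these data known. Genes named were those of the rule, its markers, genes the paper names for such glia, the 12 highest and 12 lowest ratios, the 15 most enriched over each class, and list members. Of 696 listed genes, 20 have no symbol in the counts. Clone names were left out, and a few genes are not reported here. Python 3.11.15, scipy 1.17.1 and numpy 2.4.6 were used.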

Additional observations from a re-analysis of the deposited data

How the results depend on the processing

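No paired analysis was possible because the design has a single pool of rats for DPN and for Control. The limits of the gate set the share of kept barcodes that were members: it was 13.4% in DPN and 11.9% in Control with S100b at least 10, 8.55% and 7.65% with S100b at least 20, 6.96% and 6.05% with Fabp7 plus Tyrp1 under 6, 2.23% and 2.77% with a mitochondrial limit of 10%, 6.67% and 7.70% with AY172581 counted as mitochondrial, 6.96% and 6.42% after thinning barcodes to 1000 UMIs, and 11.7% in DPN with no Sox2 or Dhh UMI required. So DPN had the higher share except with the stricter mitochondrial rules. Chosen after seeing the data, barcodes of 4000 to 12000 UMIs gave 17.1% in DPN and 16.7% in Control, and S100b at least 10 with barcodes under 100000 UMIs gave 13.5% and 12%.

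The numbers of genes at least 1.5-fold higher and lower in DPN were 642 and 173 with Fabp7 plus Tyrp1 under 6, 43 and 63 with a mitochondrial limit of 10% (75 DPN and 66 Control cells), 678 and 129 with AY172581 counted as mitochondrial, 30 and 18 on the mean-plus-1 scale, 111 and 81 with members thinned to 1000 UMIs, and 2853 and 516 with at least 20 UMIs and no share limit. Calls on the high side made up 82.0% of all calls as reported, against 40.6%, 62.5% and 57.8% with the mitochondrial limit of 10%, the mean-plus-1 scale and the thinned members.

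Of the 37 single ratios at least 1.5-fold from 1 as reported, 3 turned round in 1 setting each, and of the 17 within 1.5-fold, 9 lay on the other side of 1 in at least 1 setting. With S100b at least 10, Prph was at 0.457 and Stmn2 at 0.719, where 1 Control barcode of 219907 UMIs entered with 1819 UMIs of Prph. Flt1, with 25 UMIs in DPN and 15 in Control, was at 0.837 with AY172581 counted as mitochondrial. Outside the mitochondrial limit of 10%, the mean-plus-1 scale and the thinned members, the settings gave 8 to 12 ER chaperone genes and 7 to 10 clock genes higher, 8 to 9 heat shock genes lower, and 0 to 15 neuron markers higher, the 0 with S100b at least 10, where 5 were lower. Removing likely doublets left 883 genes higher and 212 lower, of which 828 and 186 were as reported. Depth sets the width of the intervals, from 1.18 to 1.65 for Spock3 at 40.0 CPM in DPN and from 2.44 to 2.59 for Hspa5 at 1868 CPM. The cause of the other changes was not tested.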
